A study of Mus musculus with 48 samples.

Results

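The livers of 14 mice that drank corticosterone were compared with those of 10 mice that drank vehicle, all fed the ATGL inhibitor atglistatin, by 3′-end RNA sequencing; these 24 libraries are among 48 in the series. All were male C57BL6J mice. The vehicle group drank water with 1% EtOH and the corticosterone group water with 100 ug/ml corticosterone, each for 2 weeks, and both ate Teklad chow into which atglistatin had been milled at 571 mg/kg, so that the inhibitor was present in both groups. The labels name ethanol for the vehicle drink alone, so hormone and ethanol cannot be told apart from them. The other 24 libraries came from mice given the same 2 drinks without atglistatin (14 with corticosterone, 10 with vehicle) and are used below for the difference between diets. The labels give each library its own fed glucose and insulin value and name no cage, day or batch; they do not give food or water intake, so the dose each mouse took is not known, and the p-values measure the spread between these libraries.

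Corticosterone is the main glucocorticoid of mice. It enters hepatocytes, where the enzyme Hsd11b1 can regenerate it from its inactive form, and binds the glucocorticoid receptor, Nr3c1, which moves to the nucleus, binds DNA and raises genes of gluconeogenesis, amino acid catabolism and feedback control such as Fkbp5, while lowering many immune and inflammatory genes. Adipose triglyceride lipase (ATGL, gene Pnpla2) removes the first fatty acid from stored triglyceride. In the fasting liver and in adipose tissue it supplies fatty acids for oxidation and export, and atglistatin blocks the enzyme, not its transcript.

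The vehicle libraries held between 9318390 and 21086840 counts and the corticosterone libraries between 10832711 and 21175603. The hepatocyte regulator Hnf4a was at 369 CPM (322 to 481) with vehicle and 480.0 CPM (341 to 581) with corticosterone. CPM is the count scaled to a common library total of 1000000. A group's level is given throughout as its median with the lowest and highest library in brackets. Of 20 hepatocyte identity genes, 5 rose, 2 fell and 13 did not pass at the threshold given below (all tested genes: 19% higher, 17.7% lower). Their log2 fold changes of corticosterone over vehicle ran from -0.51 to 0.59. 3 libraries stood apart. Corticosterone 41 had a median correlation of 0.954 with the rest of its group, against 0.980 to 0.989 for the other 13, and 730 of its genes lay more than 1 log2 unit from the group median, against 20 to 91. Vehicle 06 carried pancreatic acinar transcripts, with Cpa1 (carboxypeptidase A1) at 998 CPM and 10370 CPM summed over 22 acinar genes, while the other 9 vehicle libraries summed to between 13.7 and 560 CPM and the corticosterone libraries to between 9.73 and 131 CPM. Vehicle 14 had 253 genes more than 1 log2 unit from its group median, against 28 to 72 in the other vehicle libraries, and the lowest insulin of its group. Every result below is given with all 24 libraries. A gene's value or adjusted p without corticosterone 41, vehicle 06 or both follows where the call changes or the fold change, not its log2, moves by over 1.5 times.

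Fed glucose did not separate the groups, running from 95 to 212 (median 115) with corticosterone and from 100 to 159 (median 119) with vehicle, in the labels' unstated units. The highest value belonged to the only mouse of the 24 labelled diabetic, corticosterone 26. The means differed by -0.04 (permutation test over 100000 resamples, two-sided p = 0.956). Insulin ran from 2.19 to 38.0 (median 13.8) with corticosterone and from 0.464 to 2.05 (median 1.03) with vehicle, with no overlap, and the means differed by 16.8 (p = 2e-05, the smallest these permutations can give; 4e-05 adjusted over both measures). The lowest insulin of the corticosterone group was that of corticosterone 41, whose library also stood apart.

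Of 12688 genes tested, 2411 (19%) were higher and 2241 (17.7%) lower with corticosterone at an adjusted p of at most 0.05, here termed called. The counts of list members below are to be read beside these shares, which several lists come near. Most shifts were small: the median absolute log2 fold change of the called genes was 0.469 and 2848 of them changed less than 1.5-fold. Large falls outnumbered large rises at 2-fold or more, with 590 lower (4.65%) and 258 higher (2.03%), but not at 8-fold, with 36 lower and 38 higher. The 36 include pancreatic acinar genes that were not called without vehicle 06. The 38 include Tff3 and Ly6d, which were not called without corticosterone 41. These counts by size were not made without those libraries. In 399 genes (3.14%) no corticosterone library overlapped any vehicle library, 214 of them higher (1.69%) and 185 lower (1.46%). Without corticosterone 41 and vehicle 06 the calls were 2191 higher (17.2% of 12747 genes tested) and 2274 lower (17.8%), of which 2113 and 2058 were also called with all libraries. Leaving out corticosterone 41 alone lost 214 of the higher and 99 of the lower calls and gained 219 lower calls. In 46 called genes the log2 fold change itself then changed by a factor of over 1.5 or changed sign. Leaving out vehicle 06 alone did so in 17.

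**Figure D1:**
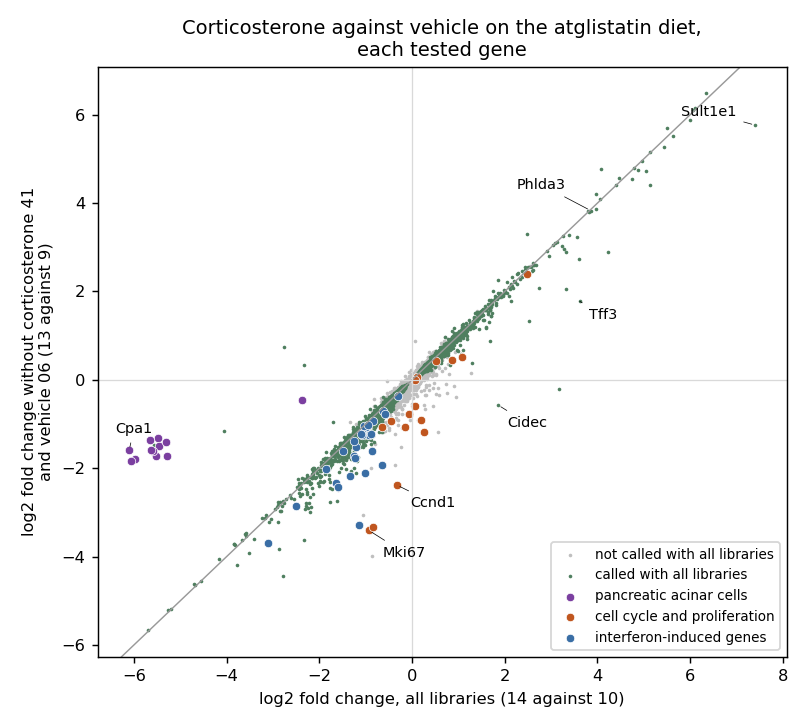
Each point is a tested gene; the x axis gives the log2 fold change of corticosterone over vehicle with all 24 libraries and the y axis the same without corticosterone 41 and vehicle 06. Most genes sit on the diagonal, the acinar genes move from a median of -5.55 to one of -1.59, and the cell cycle and many interferon-induced genes drop below the diagonal.

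Genes that the tumour suppressor p53 activates formed the list with the highest share of rises. The lists were chosen with earlier results of these data known, so this rank is not independent of the data. p53 is stabilised by DNA damage and other stress and raises genes that halt the cell cycle, repair DNA or trigger cell death, as well as Mdm2, the ligase that degrades p53 itself. Of 17 p53 targets measured, 15 rose, none fell and 2 did not pass, with a median log2 fold change of 1.26 against 0.02 over all genes tested. In 10 of the 15 the groups did not overlap, and without corticosterone 41 and vehicle 06 there were 14 rises and a median of 1.16. Phlda3, which restrains Akt at the membrane, lay at 0.691 CPM (0.141 to 0.917) with vehicle and 10.2 CPM (3.58 to 14.9) with corticosterone. Every corticosterone library was above every vehicle library, and Phlda3 had the smallest p of all genes that rose (log2 fold change 3.86 ± 0.21, adjusted p = 2.44e-19; ± gives the standard error throughout).

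The rise was shared by p53 targets of different roles. Mdm2 rose from 31.9 CPM (26.3 to 40.99) to 77.95 CPM (55.9 to 109.9), a log2 fold change of 1.31 ± 0.10, adjusted p = 5.22e-15. Ccng1, cyclin G1, which acts on Mdm2, lay at 24.6 CPM (20.1 to 37.8) with vehicle and 63.1 CPM (45.6 to 116) with corticosterone (1.38 ± 0.13, adjusted p = 7.54e-12). Neither gene's groups overlapped. The death receptors Eda2r and Tnfrsf10b started low. Eda2r went from 0.5600 CPM (0.335 to 1.23) to 3.85 CPM (1.85 to 8.88) (2.62 ± 0.26, adjusted p = 1.56e-11), and Tnfrsf10b from 0.249 CPM (0.134 to 0.693) to 2.44 CPM (1.13 to 5.02) (2.904 ± 0.31, adjusted p = 1.16e-10). In both, each corticosterone library was above all 10 vehicle libraries. Aen, an exonuclease of apoptosis, gave 1.496 ± 0.16, Polk, a DNA polymerase that copies past lesions, 1.01 ± 0.13, and the kinase Plk2 1.26 ± 0.18 on the log2 scale, also with separate groups. The 2 members that did not pass were Bax, which opens the mitochondrial membrane (0.43 ± 0.20, adjusted p = 0.08802; 0.54, adjusted p = 0.0342, without vehicle 14), and Btg2, an antiproliferative gene whose highest value, 28.5 CPM, was in corticosterone 41 (0.31 ± 0.32, adjusted p = 0.485; -0.16 without it and vehicle 06). Gdf15, a stress hormone, passed with all libraries (0.84 ± 0.29, adjusted p = 0.0203) and not without those 2 (adjusted p = 0.0601). The transcript of p53 itself, Trp53, looked up after these values were seen, was at 2.56 CPM (1.28 to 3.603) with vehicle and 2.31 CPM (1.08 to 3.31) with corticosterone (-0.20 ± 0.16, adjusted p = 0.342).

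Cdkn1a, the cyclin-dependent kinase inhibitor p21, is both a p53 target and a glucocorticoid receptor target. Its vehicle libraries held 21.5 CPM (6.55 to 25.7) and its corticosterone libraries 324 CPM (121 to 478). The highest vehicle library lay far below the lowest corticosterone library, and the log2 fold change was 4.06 ± 0.29, adjusted p = 1.32e-15. Its promoter is shown because it holds a p53 half-site with a CATG core, in capitals. Of the 14 tested p53 targets with a promoter in RefSeq, 2 (14.3%), Cdkn1a and Ei24, had such a match, against 151 of 9649 tested genes (1.56%). The sequence is RefSeq's, build GRCm38.p6, plus strand, from 250 bases before to 50 after the start, as are the promoters below; the search covered both strands.
Cdkn1a promoter, chr17:29090729-29091028: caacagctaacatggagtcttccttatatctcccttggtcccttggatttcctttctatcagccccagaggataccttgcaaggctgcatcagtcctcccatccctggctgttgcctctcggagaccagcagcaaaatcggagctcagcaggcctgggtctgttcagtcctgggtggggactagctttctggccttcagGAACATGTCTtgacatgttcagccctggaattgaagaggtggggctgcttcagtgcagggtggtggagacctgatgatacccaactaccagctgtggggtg
Ei24, named for its induction by etoposide, rose from 80.03 CPM (65.7 to 87.1) to 124 CPM (106 to 157) (0.69 ± 0.08, adjusted p = 9.06e-10), with separate groups. The match is a description of the letters and shows no binding.

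Proliferation genes gave opposite pictures with and without corticosterone 41. Of 16 tested, 3 rose (Rrm2, Cdk1 and Ccne1), 1 fell (Mcm3) and 12 did not pass with all libraries, and the median log2 fold change was 0.07. Without corticosterone 41 and vehicle 06, 9 fell, only Rrm2 rose and the median was -0.85. Ccnd1, cyclin D1, which starts the cell cycle, was at 39.6 CPM (25.6 to 55.9) with vehicle. It was at 5.22 to 9.78 CPM in 13 corticosterone libraries and at 350.3 CPM in corticosterone 41. Thus 13 libraries lay below every vehicle library and 1 lay above all of them, and the log2 fold change was -0.33 ± 0.50, adjusted p = 0.644 with all libraries and -2.38 (adjusted p = 2.22e-17) without corticosterone 41 and vehicle 06. Mki67, a marker of dividing cells, was 0.595 CPM (0.377 to 1.04) with vehicle, 0 to 0.168 CPM in 13 corticosterone libraries and 3.796 CPM in corticosterone 41 (-0.93 ± 0.58, adjusted p = 0.213; -3.404, adjusted p = 4.78e-08, without both). Top2a, which untangles replicated DNA, moved from -0.83 ± 0.57 to -3.32 when those libraries were left out. The mitotic gene Plk1 changed sign, from 0.26 ± 0.58 to -1.19. Cenpf, a kinetochore protein, and the mitotic gene Ube2c are outside the 16. They moved from -1.06 ± 0.60 to -3.05 and from 0.56 ± 0.60 to -1.17. Genes whose call changed without corticosterone 41 were picked for naming, so these 2 add nothing to the counts above. Within the list 6 members did not pass without corticosterone 41 and vehicle 06, and 2 were called higher without corticosterone 41 alone. Rrm2, the small subunit of ribonucleotide reductase, which makes DNA precursors, was the only member called higher without both libraries. It rose from 1.99 CPM (1.697 to 3.82) to 11.9 CPM (6.45 to 20.5) with no overlap (2.47 ± 0.20, adjusted p = 4.73e-14), and corticosterone 41, at 16.6 CPM, lay inside its group.

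**Figure D2:**
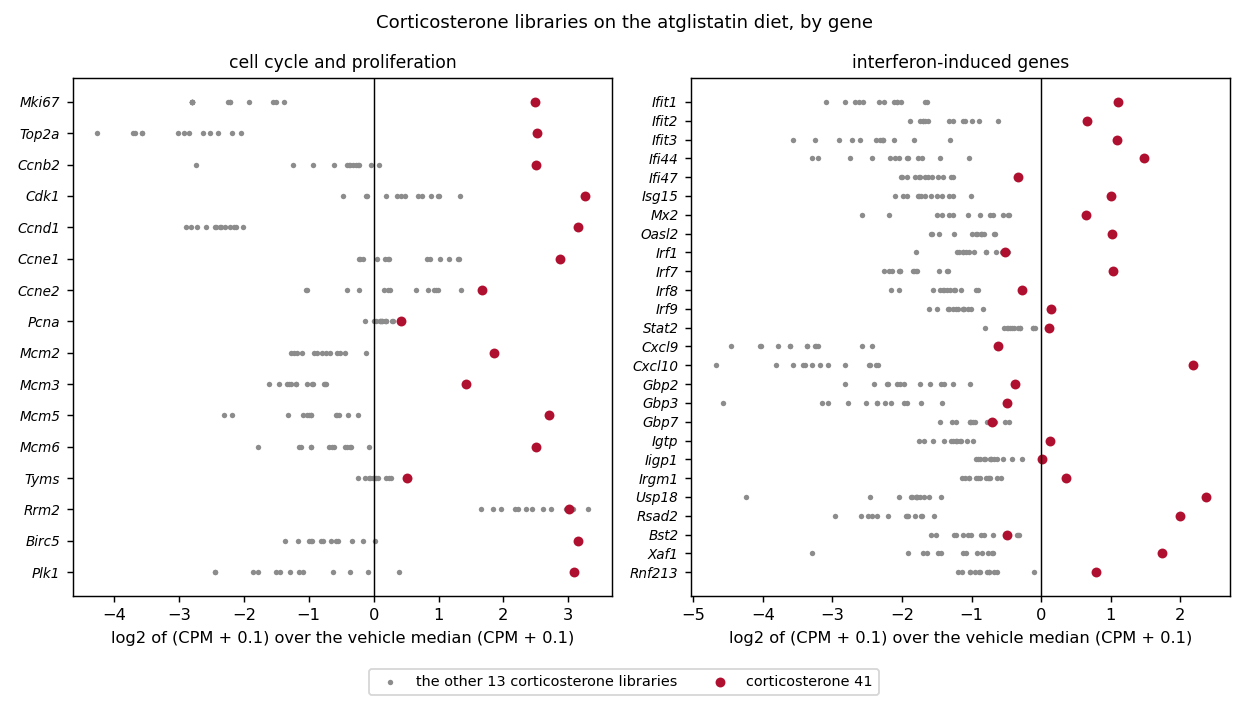
Each row is a gene and each point a corticosterone library, placed by the log2 of its CPM plus 0.1 over the median of the 10 vehicle libraries plus 0.1; red marks corticosterone 41. Corticosterone 41 lies at the right of most rows of both lists, while the other 13 libraries lie left of 0 for all 26 interferon-induced genes drawn.

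Corticosterone 41 was the highest of its 14 libraries in 14 of these 16 proliferation genes, in 24 of 27 interferon-induced genes and in 20 of 24 Kupffer cell and macrophage genes. It was the lowest in 20 of 23 male-biased genes and 26 of 37 genes of amino acid catabolism. Over the 8242 genes of at least 5 mean CPM it was the highest in 1419 and the lowest in 1911. Among calls that rested on it, Ly6d, a membrane protein of epithelia, was at 127 CPM there and at 0.0686 to 2.87 CPM in the other 13, and its log2 fold change went from 3.16 ± 1.004, adjusted p = 0.0111 to -0.21 without both libraries. Tff3, a mucosal peptide, did the same, at 368 CPM against 1.21 to 41.9 CPM (from 3.62 ± 0.96, adjusted p = 0.00238 to 1.78, adjusted p = 0.0801; 4.31 without vehicle 14). Acot2, a mitochondrial acyl-CoA thioesterase, stood at 179 CPM there and fell out of the calls too (adjusted p = 0.05399). Clca3a1 and Srxn1, lost without corticosterone 41 alone (adjusted p = 0.0572 and 0.0591), were called when vehicle 06 was left out as well (adjusted p = 0.0288 and 0.0387).

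Glucocorticoid receptor targets rose in 15 of 27 cases, fell in 1 (Sgk1) and did not pass in 11, with a median log2 fold change of 0.72. Without corticosterone 41 and vehicle 06, 14 rose and none fell, and without corticosterone 41 alone 2 fell. This list, like the others, was chosen with earlier results of these data known. Fkbp5, a co-chaperone that lowers the receptor's affinity for hormone, lay at 14.6 CPM (8.099 to 43.9) with vehicle and 183 CPM (110.4 to 326) with corticosterone. The highest vehicle value, in vehicle 14, remained below the lowest corticosterone value (3.39 ± 0.25, adjusted p = 2.73e-15). Ddit4, an inhibitor of mTOR signalling, went from 10.1 CPM (5.57 to 14.7) to 34.3 CPM (13.7 to 127) (2.22 ± 0.34, adjusted p = 7.29e-07), with 1 corticosterone library reaching into the vehicle range. The metallothionein Mt2, which binds zinc and copper, went from 10.7 CPM (2.89 to 99.8) to 206 CPM (62.7 to 669.6) (3.56 ± 0.55, adjusted p = 1.04e-06), and Mt1 from 49.7 CPM (16.1 to 536) to 239.8 CPM (121 to 1105) (1.55 ± 0.46, adjusted p = 0.00622). In both the highest vehicle library was vehicle 14, without which the values were 4.48 and 2.41, and the highest corticosterone library was corticosterone 41. Tsc22d3, or GILZ, an anti-inflammatory receptor target, moved less, from 77.7 CPM (41.4 to 104) to 116 CPM (61.2 to 209) (0.73 ± 0.23, adjusted p = 0.0109). Several textbook targets did not pass: Per1 gave 0.27 ± 0.24, Tat, tyrosine aminotransferase, 0.12 ± 0.27 and Klf9 0.10 ± 0.12.

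A palindromic glucocorticoid response element, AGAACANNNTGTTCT, occurred in 3 of 32851 promoters (0.00913%), in 2 of 9649 tested genes (0.0207%) and, among 22 receptor targets with a promoter, in that of Sgk1 alone (4.55%). Sgk1, a kinase of sodium and stress responses, was at 12.97 CPM (8.67 to 18.5) with vehicle and 9.98 CPM (6.55 to 13.5) with corticosterone. It fell slightly (-0.38 ± 0.15, adjusted p = 0.0457) and did not pass without the 2 libraries (adjusted p = 0.06099) or without any 1 of 10 single libraries (adjusted p from 0.0505 without vehicle 08 to 0.113 without vehicle 09). The target with the full palindrome near its start was also the only target called lower with all libraries. This is 1 gene, and a link between the element and the direction was not tested. The element is in capitals.
Sgk1 promoter, chr10:21993640-21993939: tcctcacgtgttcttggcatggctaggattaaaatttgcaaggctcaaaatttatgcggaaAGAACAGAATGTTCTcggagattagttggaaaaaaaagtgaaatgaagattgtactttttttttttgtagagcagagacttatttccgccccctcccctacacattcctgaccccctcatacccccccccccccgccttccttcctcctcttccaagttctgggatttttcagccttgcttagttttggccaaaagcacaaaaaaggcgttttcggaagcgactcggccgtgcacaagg
A shorter core, GNACANNNTGTNC, which the full palindrome contains, was in 156 promoters (0.475%), in 36 of the tested genes (0.373%) and in those of Sgk1 and Mt1 (9.09% of the 22 targets).

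The hormone's own carriers and receptors moved in both directions. Serpina6, the corticosteroid-binding globulin that carries the hormone in plasma, fell from 122 CPM (78.8 to 308) to 14.2 CPM (1.47 to 41.6), and the groups did not overlap (-2.89 ± 0.26, adjusted p = 2.15e-12). Its lowest value was in corticosterone 41. Hsd11b1 rose from 367 CPM (278 to 421) to 553 CPM (189 to 648) (0.56 ± 0.12, adjusted p = 1.61e-04), again with corticosterone 41 lowest. The receptor Nr3c1 fell slightly, from 51.6 CPM (40.4 to 53.7) to 42.4 CPM (27.98 to 48.3) (-0.26 ± 0.07, adjusted p = 0.00184). Of the list of 20 receptor and chaperone genes, 5 rose, 3 fell and 12 did not pass, where 19% of all tested genes rose and 17.7% fell. The target of the inhibitor, Pnpla2, was at 45.4 CPM (32.1 to 79.05) with vehicle and 44.01 CPM (36.9 to 102) with corticosterone (0.03 ± 0.14, adjusted p = 0.911).

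**Figure D3:**
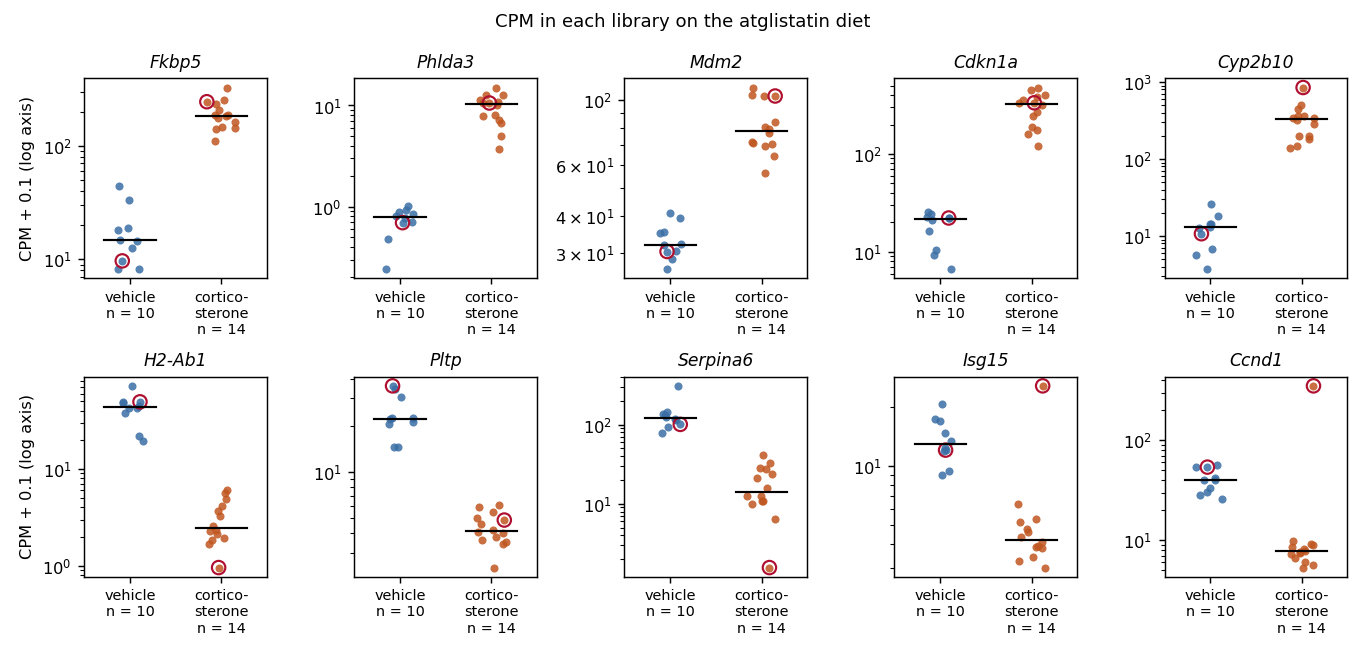
CPM plus 0.1 on a log axis in each of the 10 vehicle and 14 corticosterone libraries for 10 genes; the bar is the median and red circles mark vehicle 06 and corticosterone 41. The groups are separate for Fkbp5, Phlda3, Mdm2, Cdkn1a, Cyp2b10, H2-Ab1, Pltp and Serpina6, and only corticosterone 41 crosses over for Isg15 and Ccnd1.

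Among the largest rises were genes nearly silent with vehicle. Obp2a, an odorant-binding lipocalin, went from 3.02 CPM (0.966 to 6.88) to 157 CPM (76.4 to 859) (6.102 ± 0.43, adjusted p = 1.29e-15). Fam107a, an actin-binding protein, went from 0.128 CPM (0 to 0.494) to 13.4 CPM (3.07 to 23.8) (5.99 ± 0.55, adjusted p = 2.06e-12), and Myom3, a myomesin of muscle, from 0.579 CPM (0 to 0.863) to 23.2 CPM (10.2 to 36.8) (5.43 ± 0.31, adjusted p = 5.57e-19). No library of one group reached the other in these 3 genes. Scara5, a ferritin receptor (3.82 ± 0.41, adjusted p = 1.96e-10), and the uncharacterised loci E030018B13Rik (4.96 ± 0.35, adjusted p = 1.32e-15) and 1810053B23Rik (3.97 ± 0.38, adjusted p = 8.46e-12) were likewise separate; without vehicle 14 the last gave 4.84. Serinc3, a serine incorporator, showed that a modest change can be as clear. It lay at 226 CPM (188 to 284) with vehicle and 627 CPM (499.7 to 781) with corticosterone, a log2 fold change of 1.48 ± 0.09, adjusted p = 3.65e-18, without overlap.

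Enzymes that handle drugs and foreign compounds split within families. Flavin monooxygenases oxidise nitrogen and sulphur. Of these, Fmo5 went from 659.5 CPM (530.5 to 786) to 2303 CPM (1685 to 2911) (1.83 ± 0.11, adjusted p = 8.38e-18) and Fmo1 from 78.2 CPM (70.6 to 105) to 177 CPM (139 to 240.1) (1.14 ± 0.12, adjusted p = 2.68e-10), both without overlap. Fmo2 gave 1.68 ± 0.32, adjusted p = 4.01e-05, and Fmo4 did not pass. Of 18 genes of flavin monooxygenases and glucuronidation, 6 rose, 2 fell and 10 did not pass. Of 24 targets of the receptors CAR and PXR, 7 rose, 6 fell and 11 did not pass. Cyp2b10, the classic CAR target, rose from 12.8 CPM (3.602 to 26.1) to 332 CPM (139.6 to 848) without overlap (4.75 ± 0.37, adjusted p = 1.33e-14), and Gstm3, a glutathione transferase, from 156 CPM (114 to 299.7) to 617 CPM (369.5 to 2728), also without overlap (2.13 ± 0.29, adjusted p = 5.40e-08). Cyp2c55 fell from 8.01 CPM (3.08 to 12.6) to 1.02 CPM (0.403 to 2.94), also with separate groups (-2.55 ± 0.25, adjusted p = 9.45e-12), and the bilirubin transferase Ugt1a1 gave -1.38 ± 0.27, adjusted p = 6.62e-05. Cyp3a11 rose by less, without overlap (0.73 ± 0.13, adjusted p = 1.41e-05). Cytochrome P450 and glutathione transferase genes have close copies, and reads of 50 bases may be shared among them.

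Sex steroid and thyroid hormone metabolism held large changes in both directions, with 7 of 22 genes higher, 7 lower and 8 not passing. Sult1e1, which inactivates oestrogens by sulphation, rose from 0.233 CPM (0.0671 to 0.988) to 16.5 CPM (1.85 to 518) (7.404 ± 1.000, adjusted p = 5.61e-08). All 14 libraries were above the vehicle group, but the highest value was in corticosterone 41, the other 13 lay at 1.85 to 65.6 CPM, and the log2 fold change was 5.76 without the 2 libraries. Cyp17a1, which makes androgen precursors, rose from 13.6 CPM (6.66 to 120.0) to 240.0 CPM (93.8 to 481) (3.23 ± 0.47, adjusted p = 2.65e-07), and only vehicle 14 lay within the corticosterone range (3.998 without it). The catecholamine sulphotransferase Sult1d1 went from 148 CPM (98.9 to 209) to 580.3 CPM (344 to 1185) without overlap (2.104 ± 0.19, adjusted p = 9.07e-13). Hsd17b6, which breaks down active androgens, fell from 284 CPM (155 to 399.5) to 32.9 CPM (7.47 to 377). Corticosterone 41 alone stayed at the vehicle level, at 377 CPM, and the value went from -2.197 ± 0.38, adjusted p = 9.32e-06 to -2.99 without it and vehicle 06. Serpina7, the thyroxine-binding globulin (-1.61 ± 0.21, adjusted p = 2.30e-08), and Dio1, the deiodinase that activates thyroid hormone (-0.67 ± 0.17, adjusted p = 0.001702), fell.

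Genes that differ between male and female mouse livers did not move as a block. Of 13 female-biased genes, 5 rose and 3 fell; of 23 male-biased genes, 5 rose and 7 fell, and 8 rose and 7 fell without corticosterone 41 and vehicle 06. Sult1e1, Cyp17a1, Fmo2 and Acot4 were among those that rose, while Abcd2, a peroxisomal transporter (-2.18 ± 0.40, adjusted p = 2.33e-05; -2.87 without corticosterone 41 and vehicle 06), Cyp2a4 (-2.31 ± 0.60, adjusted p = 0.00195; -2.93 without both) and Cyp2b9 (-2.45 ± 0.81, adjusted p = 0.01503) fell. Vehicle 14 was the highest vehicle library in all 3, and without it Cyp2a4 gave 0.06 (adjusted p = 0.931) and Cyp2b9 -1.85 (adjusted p = 0.0831). Among male-biased genes, Nudt7, a peroxisomal coenzyme A hydrolase, fell from 312 CPM (102 to 694) to 95.9 CPM (37.96 to 173) (-1.73 ± 0.24, adjusted p = 1.53e-07), and Mup17, a major urinary protein, from 71.2 CPM (3.45 to 362) to 9.44 CPM (0.857 to 25.02) (-3.57 ± 0.52, adjusted p = 3.13e-07), whereas Mup20 rose (1.67 ± 0.27, adjusted p = 2.96e-06). Mup genes are near-identical copies, so reads cannot always be assigned among them. Growth hormone sets this pattern through its receptor Ghr and STAT5. Ghr fell from 328 CPM (282 to 375) to 220.5 CPM (75.6 to 266) without overlap (-0.59 ± 0.10, adjusted p = 7.46e-06), while its target Igf1 rose a little (0.27 ± 0.10, adjusted p = 0.0233), in 13 of 14 libraries above the vehicle mean; corticosterone 41, at 536 CPM, was the exception. Igf1 did not pass without corticosterone 24, 26 or 40 or vehicle 13 (adjusted p from 0.0509 to 0.0652).

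Genes of immune cells were among the largest falls. Of 18 genes of MHC class II and antigen presentation, 16 fell and none rose, and 7 had groups that did not overlap. H2-Ab1, the beta chain of the class II molecule I-A, went from 43.8 CPM (19.2 to 71.96) to 2.34 CPM (0.857 to 5.89) (-3.83 ± 0.24, adjusted p = 5.90e-18), H2-Aa, its alpha chain, from 75.4 CPM (35.4 to 121) to 4.89 CPM (0.4897 to 13.4) (-3.84 ± 0.29, adjusted p = 5.22e-15), and the invariant chain Cd74 from 33.2 CPM (15.5 to 56.1) to 2.17 CPM (0 to 6.601) (-3.61 ± 0.27, adjusted p = 5.60e-15). Corticosterone 41 was the lowest library in all 3 and in H2-Eb1 (-3.58 ± 0.26, adjusted p = 2.73e-15). The peptide loaders H2-DMa (-2.71 ± 0.24, adjusted p = 1.39e-12) and H2-DMb1 (-2.799 ± 0.27, adjusted p = 6.88e-12) fell too. Class I genes, which nearly all cells carry, fell far less: H2-K1 gave -0.53 ± 0.10, adjusted p = 6.66e-05 and B2m -0.31 ± 0.11, adjusted p = 0.0165. In whole liver, fewer cells of a type and less RNA per cell cannot be told apart.

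The 20 lymphocyte genes in the table summed to between 5.09 and 24.7 CPM with corticosterone and to between 28.8 and 54.1 CPM with vehicle, and 11 of the 12 tested fell. Ptprc (CD45), carried by all white blood cells, fell from 7.53 CPM (5.96 to 8.42) to 1.75 CPM (0.5003 to 3.36) (-1.98 ± 0.17, adjusted p = 5.88e-13), Cd79b of B cells from 0.893 CPM (0.197 to 1.201) to 0.0248 CPM (0 to 0.151) (-3.84 ± 0.40, adjusted p = 9.09e-11) and Trbc2 of T cells from 1.95 CPM (1.096 to 2.77) to 0.422 CPM (0 to 0.992) (-2.17 ± 0.31, adjusted p = 2.28e-07). Each was lower in all 14 corticosterone libraries than in any vehicle library. Of the list's 30 genes, 10, Cd3e and Cd8a among them, were not analysed here, and 8, Cd3d and Ms4a1 among them, did not reach the count filter. Of 24 Kupffer cell and macrophage genes, 18 fell and 1 rose. Aif1, an actin-bundling protein of macrophages, fell from 7.44 CPM (5.57 to 12.6) to 1.73 CPM (0.836 to 3.63) (-2.05 ± 0.19, adjusted p = 2.05e-12), and Csf1r, the receptor for their growth factor, from 42.97 CPM (27.8 to 54.5) to 15.5 CPM (8.62 to 26.3) (-1.43 ± 0.17, adjusted p = 2.42e-09), both without overlap. Cd5l, a secreted macrophage protein, was at 53.5 CPM (32.2 to 69.7) with vehicle, 8.83 to 24.9 CPM in 13 corticosterone libraries and 89.2 CPM in corticosterone 41 (-1.42 ± 0.25, adjusted p = 1.02e-05). The one rise was Slc40a1, the iron exporter ferroportin, which hepatocytes also express (0.44 ± 0.11, adjusted p = 7.24e-04). Neutrophil and dendritic cell genes fell in 5 of 7 cases, with S100a9 at -1.86 ± 0.34, adjusted p = 2.43e-05.

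Interferon-induced genes fell in 25 of 27 cases with all libraries and in 27 of 27 without corticosterone 41 and vehicle 06, with medians of -1.09 and -1.51. Interferons act through factors such as STAT2 and IRF9, which bind a repeated GAAA element and switch on antiviral genes. Cxcl9, a chemokine for T cells, fell from 11.3 CPM (6.91 to 21.3) to 1.01 CPM (0.418 to 7.29) (-3.12 ± 0.30, adjusted p = 7.85e-12). Isg15, a ubiquitin-like antiviral protein, was at 12.8 CPM (8.91 to 20.7) with vehicle, 2.92 to 6.296 CPM in 13 corticosterone libraries and 25.7 CPM in corticosterone 41 (-1.25 ± 0.23, adjusted p = 2.55e-05; -1.72 without both). Ifit1, which binds viral RNA, followed the same course, at 11.3 CPM (6.98 to 18.1) with vehicle, 1.239 to 3.57 CPM in 13 libraries and 24.4 CPM in corticosterone 41 (-1.65 ± 0.32, adjusted p = 4.34e-05; -2.34 without both). With all libraries only Gbp3, Gbp7 and Bst2 had separate groups, and without the 2 libraries 22 of the 27 did, where 2.29% of all genes were separately higher and 3.09% separately lower. The transcription factors Irf9 (-1.09 ± 0.13, adjusted p = 2.61e-09) and Irf8 (-1.26 ± 0.15, adjusted p = 1.64e-09) fell as well. The 2 that did not pass with all libraries were Cxcl10 (-1.15 ± 0.60, adjusted p = 0.135) and Usp18 (-0.65 ± 0.40, adjusted p = 0.212; -1.92, adjusted p = 4.96e-11, without both). Cxcl10 was at 11.5 CPM in corticosterone 41 and 0 to 0.403 CPM in the other 13, and gave -3.29 (adjusted p = 1.26e-06) without both. The Kupffer cell genes summed to between 239 and 785 CPM with corticosterone, with corticosterone 41 highest, and to between 398 and 632 CPM with vehicle; their part in the interferon result was not tested.

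Promoters of 3 interferon-induced genes are shown for the repeated GAAA element described above. The list was not built from the motif, but interferons switch on such genes through it. Its frequency among them is therefore not independent of the list. GAAANNGAAA, searched on both strands, occurred in 12 of the 23 tested members with a promoter in RefSeq (52.2%), in 369 of 9649 tested genes (3.82%) and in 1131 of all 32851 promoters (3.44%). The members with it were Ifit1, Ifit3, Isg15, Stat2, Cxcl10, Gbp2, Gbp3, Gbp7, Igtp, Irgm1, Rsad2 and Bst2. The 3 guanylate-binding or immunity-related GTPases below, which act on membranes around pathogens, carry it in capitals, as TTTC repeats where the match is on the minus strand.
Gbp3 promoter, chr3:142559794-142560093: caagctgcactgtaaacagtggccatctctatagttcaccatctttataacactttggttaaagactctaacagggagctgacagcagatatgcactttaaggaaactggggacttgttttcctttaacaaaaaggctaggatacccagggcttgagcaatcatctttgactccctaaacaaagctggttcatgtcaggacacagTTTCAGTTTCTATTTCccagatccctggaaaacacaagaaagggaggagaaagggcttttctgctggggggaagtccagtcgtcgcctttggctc
Gbp2 promoter, chr3:142620413-142620712: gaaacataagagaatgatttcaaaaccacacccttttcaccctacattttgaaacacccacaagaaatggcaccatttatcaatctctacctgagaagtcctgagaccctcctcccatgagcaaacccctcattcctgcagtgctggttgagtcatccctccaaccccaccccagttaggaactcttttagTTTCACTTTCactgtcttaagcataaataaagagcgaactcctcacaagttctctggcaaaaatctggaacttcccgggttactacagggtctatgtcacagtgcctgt
Igtp promoter, chr11:58199306-58199605: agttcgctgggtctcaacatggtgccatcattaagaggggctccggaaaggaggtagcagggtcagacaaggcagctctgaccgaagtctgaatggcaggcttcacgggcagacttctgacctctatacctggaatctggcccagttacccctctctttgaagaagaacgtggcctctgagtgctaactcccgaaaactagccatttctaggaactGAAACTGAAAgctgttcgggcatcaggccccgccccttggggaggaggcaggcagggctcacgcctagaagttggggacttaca
Gbp3 has 2 overlapping matches and fell from 2.28 CPM (1.81 to 5.12) to 0.384 CPM (0 to 1.59) (-2.500 ± 0.25, adjusted p = 4.55e-11). Gbp2 fell from 3.04 CPM (1.62 to 6.97) to 0.771 CPM (0.343 to 2.33) (-1.85 ± 0.23, adjusted p = 1.24e-08), and Igtp from 23.7 CPM (14.8 to 31.4) to 10.1 CPM (6.94 to 25.9) (-1.100 ± 0.16, adjusted p = 2.11e-07), with corticosterone 41 the highest corticosterone library in each. The share with the motif describes these letters in this window and shows no binding.

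Endothelial and stellate cell genes fell too, by less. Of 24 sinusoidal endothelial genes 14 fell and none rose, with a median of -0.33. Kdr, the VEGF receptor, fell from 72.4 CPM (54.4 to 85.1) to 40.2 CPM (27.7 to 57.04) (-0.73 ± 0.09, adjusted p = 9.97e-09) and Cdh5, VE-cadherin, from 9.99 CPM (8.198 to 12.1) to 5.66 CPM (3.77 to 8.38) (-0.79 ± 0.10, adjusted p = 2.23e-08), both with overlap. Of 25 stellate and matrix genes, 11 fell and none rose. Col14a1, a collagen of fibril surfaces, was the clearest, from 29.9 CPM (20.1 to 35.5) to 12.01 CPM (9.73 to 16.2) without overlap (-1.22 ± 0.09, adjusted p = 1.34e-14). Col3a1 (-1.59 ± 0.17, adjusted p = 1.64e-10) and Sparc (-0.64 ± 0.08, adjusted p = 1.94e-09) also fell, and Itga9, an integrin, went from 14.8 CPM (11.7 to 18.7) to 6.36 CPM (4.92 to 9.49) (-1.16 ± 0.09, adjusted p = 9.78e-15). Clec2h, a lectin-like ligand, fell from 11.9 CPM (6.98 to 28.1) to 1.89 CPM (0 to 5.64) (-2.85 ± 0.33, adjusted p = 1.63e-09).

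The pancreatic genes are the calls that 1 vehicle library made. All 12 tested were lower with all libraries (median -5.55) and none was called without vehicle 06 and corticosterone 41 (median -1.59). Cpa1 was at 998 CPM in vehicle 06, at 37.8 CPM in vehicle 11 and at up to 8.25 CPM in the corticosterone libraries, with a vehicle median of 0.256 CPM. Its log2 fold change was -6.100 ± 1.53, adjusted p = 0.00134 with all libraries and -1.69 (adjusted p = 0.344) without vehicle 06. The lipase gene Pnlip moved from -6.07 ± 1.54 to -1.93, its cofactor Clps from -5.64 ± 1.46 to -1.44, the elastase Cela3b from -5.98 ± 1.49 to -1.88, and the proteases Ctrb1 and Prss2 from -5.48 ± 1.54 and -5.59 ± 1.52 to -1.42 and -1.701. The ribonuclease Rnase1 (-5.64 ± 1.52 to -1.68) and 2210010C04Rik (-5.57 ± 1.55 to -1.56) did likewise. Leaving out corticosterone 23 moved Cpa1 to -6.73, Clps to -6.34, Ctrb1 to -6.21, Prss2 to -6.18 and Rnase1 to -6.37, and leaving out corticosterone 47 moved Cpa1 to -6.69 and Pnlip to -6.67.

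More genes of sugar metabolism rose than fell. Of 19 glycolysis and fructolysis genes, 11 rose, 1 fell and 7 did not pass. Khk, the first enzyme of fructolysis, went from 229 CPM (194 to 299.8) to 501 CPM (188 to 954) (1.11 ± 0.16, adjusted p = 3.13e-07) and Tkfc, which phosphorylates glyceraldehyde, from 209.9 CPM (132 to 292) to 508 CPM (355 to 895) (1.41 ± 0.17, adjusted p = 3.46e-09). The lowest Khk value of the corticosterone group was in corticosterone 41. Pklr, liver pyruvate kinase, rose (1.36 ± 0.23, adjusted p = 5.96e-06). Of 14 gluconeogenic genes 6 rose and none fell, where 19% of all tested genes rose. Only 4 rose without vehicle 06, and 5 without both vehicle 06 and corticosterone 41. Slc37a4, which brings glucose 6-phosphate to the glucose-6-phosphatase, went from 104 CPM (71.9 to 117) to 204 CPM (169 to 278) without overlap (1.14 ± 0.13, adjusted p = 1.33e-09), whereas the phosphatase G6pc (-0.06 ± 0.23, adjusted p = 0.8601) and Pck1, the pathway's rate-limiting enzyme (-0.03 ± 0.25, adjusted p = 0.938), did not pass. Pyruvate carboxylase, Pcx, rose (0.44 ± 0.12, adjusted p = 0.00212).

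Glycogen genes rose in 6 of 16 cases and fell in 3. Gbe1, the branching enzyme, rose from 133 CPM (118 to 179) to 221 CPM (194 to 238) without overlap (0.67 ± 0.09, adjusted p = 3.04e-08), and the phosphorylase Pygl from 364 CPM (294 to 422) to 536 CPM (253 to 694) (0.56 ± 0.10, adjusted p = 8.76e-06). The phosphatase targeting subunits that promote glycogen storage differed: Ppp1r3b (0.88 ± 0.17, adjusted p = 6.98e-05) and Ppp1r3c (1.08 ± 0.28, adjusted p = 0.00218) rose and Ppp1r3g fell from 0.784 CPM (0.0671 to 4.38) to 0.113 CPM (0 to 0.263) (-3.42 ± 0.54, adjusted p = 1.75e-06). Of 18 genes of insulin signalling and FoxO targets, 5 rose, 4 fell and 9 did not pass (all tested genes: 19% higher, 17.7% lower). Igfbp2, a binding protein that insulin lowers, fell from 177 CPM (144 to 366) to 34.3 CPM (11.7 to 187) (-2.29 ± 0.35, adjusted p = 1.03e-06). Igfbp1, which insulin also lowers, was at 48.7 CPM (19.3 to 86.4) with vehicle, 7.26 to 50.7 CPM in 13 corticosterone libraries and 470.5 CPM in corticosterone 41, the library with the lowest insulin of its group (0.13 ± 0.53, adjusted p = 0.878; -1.02, adjusted p = 0.0441, without corticosterone 41 and -0.91, adjusted p = 0.0838, without vehicle 06 as well).

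Fat synthesis and storage did not move as 1 programme. Of 17 lipogenic genes 5 fell, 1 rose and 11 did not pass. Scd1, which desaturates stearate, fell from 2358 CPM (1237 to 3708) to 735 CPM (105 to 1414) (-1.66 ± 0.25, adjusted p = 7.89e-07), the elongase Elovl5 from 367 CPM (222 to 581) to 138 CPM (106 to 277) (-1.28 ± 0.15, adjusted p = 2.36e-09), and Acss2, which makes acetyl-CoA from acetate, gave -1.001 ± 0.16, adjusted p = 1.37e-06. Fatty acid synthase, Fasn (-0.38 ± 0.19, adjusted p = 0.1104), and its regulator Srebf1 (-0.42 ± 0.22, adjusted p = 0.123) did not pass with all libraries and were called lower without corticosterone 40 (adjusted p = 0.0339 and 0.0276), and Thrsp, a lipogenic cofactor, rose from 250.0 CPM (89.2 to 353) to 615 CPM (164 to 1170) (1.41 ± 0.25, adjusted p = 1.07e-05). Of 16 triglyceride synthesis genes 5 rose and 3 fell. Agpat3, an acyltransferase, rose from 90.01 CPM (78.01 to 103) to 156 CPM (121 to 178) without overlap (0.74 ± 0.08, adjusted p = 4.84e-11), and Lpin1, a phosphatidate phosphatase, from 93.1 CPM (54.00 to 414) to 481 CPM (137 to 1036) (1.697 ± 0.38, adjusted p = 3.85e-04), while Gpam, the first acyltransferase, fell (-0.62 ± 0.14, adjusted p = 3.37e-04).

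Lipid droplet genes, the setting in which ATGL works, rose in 8 of 21 cases and fell in 4. Without vehicle 06, 8 rose and 2 fell. Without corticosterone 41, 6 rose and 4 fell, and without both libraries 6 rose and 3 fell. Plin5, which couples droplets to mitochondria, went from 48.3 CPM (41.2 to 60.1) to 130.2 CPM (85.1 to 179.5) without overlap (1.399 ± 0.15, adjusted p = 1.43e-10). Abhd5, the coactivator of ATGL, went from 26.3 CPM (18.99 to 35.6) to 42.9 CPM (35.4 to 54.6) (0.70 ± 0.10, adjusted p = 2.10e-07), and Mgll, which completes lipolysis, gave 0.52 ± 0.11, adjusted p = 2.61e-04. Plin2, the main coat protein of liver droplets, was at 279.9 CPM (232 to 326) with vehicle and 244 CPM (156 to 533) with corticosterone, the highest in corticosterone 41 (-0.05 ± 0.13, adjusted p = 0.808). Fitm1, a droplet-forming protein, fell (-1.06 ± 0.25, adjusted p = 5.68e-04).

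Fatty acid oxidation genes and PPARalpha targets split, with 11 of 28 higher and 7 lower. The receptor Ppara fell (-0.51 ± 0.13, adjusted p = 0.00194). Acaa1b, a peroxisomal thiolase, gave -0.99 ± 0.16, adjusted p = 1.99e-06 and Bdh1, of ketone bodies, -0.86 ± 0.15, adjusted p = 1.02e-05. Cpt1a, the gate of mitochondrial oxidation, gave -0.24 ± 0.12, adjusted p = 0.117, and was called lower without vehicle 05 or corticosterone 23 or 41 (adjusted p = 0.0393, 0.0235 and 0.0482). Acot1, a cytosolic thioesterase, rose from 38.8 CPM (25.8 to 50.9) to 97.8 CPM (58.02 to 172) without overlap (1.42 ± 0.21, adjusted p = 5.76e-07), although the Acot genes have close copies. The hormone Fgf21 rose from 0.4305 CPM (0.0628 to 1.58) to 1.77 CPM (0.754 to 25.5) (2.74 ± 0.56, adjusted p = 1.16e-04; 2.07 without both), highest in corticosterone 41. Angptl4, an inhibitor of lipoprotein lipase, gave 1.01 ± 0.25, adjusted p = 9.68e-04. Fatty acid uptake and binding genes fell in 8 of 16 cases and rose in 2, and fell in 4 without corticosterone 41 and vehicle 06. Vldlr, a lipoprotein receptor, fell from 4.44 CPM (1.51 to 6.97) to 1.41 CPM (0.175 to 2.81) (-1.62 ± 0.32, adjusted p = 5.56e-05), and the receptor Lrp1 gave -0.31 ± 0.08, adjusted p = 0.00158. Fabp4, a fatty acid carrier of fat cells and macrophages, was one of the 2 that rose (0.77 ± 0.16, adjusted p = 1.34e-04), with its highest values in vehicle 06 and corticosterone 41, and Cd36, a fatty acid translocase, did not pass (-0.08 ± 0.22, adjusted p = 0.812).

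Lipoprotein genes changed in both directions, with 6 of 20 higher and 3 lower, beside 19% and 17.7% of all tested genes. Apoa4, of triglyceride-rich particles, rose from 52.5 CPM (40.2 to 74.9) to 388 CPM (158 to 4653) without overlap, its highest value being corticosterone 41 (3.602 ± 0.43, adjusted p = 2.72e-09; 2.73 without both). Mttp, which loads lipid onto apoB, went from 126 CPM (89.3 to 142) to 196 CPM (150.5 to 234) without overlap (0.70 ± 0.10, adjusted p = 1.28e-07), and Apoc3, an inhibitor of lipolysis, from 2790 CPM (2490 to 3366) to 5765 CPM (3677 to 9535) (1.06 ± 0.15, adjusted p = 2.50e-07), again without overlap. Pltp, the phospholipid transfer protein of plasma, fell from 22.1 CPM (14.4 to 36.05) to 4.04 CPM (2.298 to 5.97), with all 14 libraries below the vehicle group (-2.48 ± 0.18, adjusted p = 1.32e-15). Apob fell less (-0.46 ± 0.15, adjusted p = 0.0134).

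Cholesterol synthesis genes were lower in 7 of 25 cases and higher in none. Sc5d, of the last steps, fell from 401 CPM (343 to 525) to 169 CPM (118 to 217) without overlap (-1.298 ± 0.11, adjusted p = 2.10e-13), and Insig1, the sterol sensor, from 90.5 CPM (52.8 to 143) to 51.97 CPM (35.4 to 72.1) (-0.85 ± 0.18, adjusted p = 1.86e-04). Stard4 (-0.39 ± 0.10, adjusted p = 0.00257), Ebp (-0.30 ± 0.08, adjusted p = 0.00433) and Acat2 (-0.40 ± 0.12, adjusted p = 0.00488) fell less. Bile acid genes rose in 7 of 25 cases and fell in 6 (all tested genes: 19% higher, 17.7% lower). The bile acid receptor Nr1h4 (FXR) rose from 58.8 CPM (49.4 to 63.5) to 85.2 CPM (57.8 to 98.5) (0.54 ± 0.07, adjusted p = 2.68e-08) and the uptake carrier Slc10a1 from 266 CPM (221 to 316) to 444 CPM (259 to 580.0) (0.76 ± 0.12, adjusted p = 2.03e-06), while Slco1a4 fell (-1.04 ± 0.23, adjusted p = 3.18e-04). Cyp7a1, the rate-limiting enzyme of bile acid synthesis, gave -0.30 ± 0.34, adjusted p = 0.523.

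Of 37 genes of amino acid catabolism 8 were higher and 7 lower, shares near those of all tested genes (19% and 17.7%). Oat, ornithine aminotransferase, fell from 432 CPM (257 to 563) to 119.7 CPM (41.7 to 176) without overlap (-1.87 ± 0.15, adjusted p = 7.04e-14). Agxt, which removes glyoxylate (-1.06 ± 0.16, adjusted p = 6.86e-07), Amdhd1, of histidine breakdown (-0.68 ± 0.10, adjusted p = 5.08e-07), and Aldh4a1, of proline breakdown (-0.65 ± 0.09, adjusted p = 6.80e-08), also fell, the first pair without overlap, while the tryptophan enzymes Tdo2 (0.51 ± 0.11, adjusted p = 3.85e-04) and Ido2 (0.58 ± 0.09, adjusted p = 3.39e-07) rose. Of 14 urea cycle genes, 2 rose, 3 fell and 9 did not pass, again near the shares of all tested genes. Asl (0.59 ± 0.14, adjusted p = 8.81e-04) and Arg1 (0.60 ± 0.13, adjusted p = 2.89e-04) rose. Otc (-0.41 ± 0.07, adjusted p = 4.41e-06) and the transporters Slc38a3 (-0.71 ± 0.13, adjusted p = 1.49e-05) and Slc7a2 (-0.83 ± 0.20, adjusted p = 6.67e-04) fell. Pericentral genes fell in 6 of 18 cases and rose in 2, and in 4 and 1 without corticosterone 41 and vehicle 06. Lgr5, a Wnt target (-1.103 ± 0.19, adjusted p = 6.42e-06), and Cyp2e1, which oxidises ethanol (-1.05 ± 0.22, adjusted p = 1.26e-04), were among those that fell. Periportal genes rose in 6 of 18 cases, Cyp2f2 among them (0.45 ± 0.10, adjusted p = 3.46e-04), and fell in 1. Corticosterone 41 was the lowest of its group in 11 of the 18 pericentral genes, and in 1911 of the 8242 genes of at least 5 mean CPM.

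Acute phase proteins rose in 10 of 27 cases and fell in 3, or in 5 without corticosterone 41. Hp, haptoglobin, which binds free haemoglobin, went from 1098 CPM (935 to 1856) to 2750 CPM (2090 to 3691) (1.19 ± 0.17, adjusted p = 2.22e-07), the protease inhibitor Serpina3n from 230.2 CPM (175 to 308) to 551 CPM (371 to 759) (1.29 ± 0.15, adjusted p = 1.25e-09), Serpina3m gave 1.04 ± 0.12, adjusted p = 5.81e-10 and Lbp, which binds bacterial endotoxin, 0.84 ± 0.10, adjusted p = 4.58e-09. All 4 had groups that did not overlap. Lcn2, which captures bacterial iron carriers, went from 2.42 CPM (0.872 to 7.21) to 20.3 CPM (6.197 to 465) (4.22 ± 0.67, adjusted p = 1.84e-06). Its highest value was in corticosterone 41, and it gave 2.89 without the 2 libraries. Serum amyloid went the other way: Saa2 was at 11.6 CPM (5.84 to 51.95) with vehicle and 1.29 CPM (0.415 to 14.1) with corticosterone (-2.88 ± 0.70, adjusted p = 8.99e-04; -3.83 without both), corticosterone 41 being highest. Saa1 and Saa2 share most of their sequence.

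Complement genes split between rises and falls. C4bp, a complement inhibitor, rose from 252 CPM (183 to 287) to 473 CPM (361 to 789.8) without overlap (0.99 ± 0.11, adjusted p = 1.51e-10), and C9 gave 0.44 ± 0.12, adjusted p = 0.00401, whereas C1qa (-1.13 ± 0.16, adjusted p = 9.14e-08), C1qb (-1.17 ± 0.16, adjusted p = 5.91e-08) and C1qc (-0.93 ± 0.18, adjusted p = 6.28e-05), made by macrophages, and C2 (-0.59 ± 0.11, adjusted p = 2.61e-05) fell; of 25 genes 6 rose and 8 fell. Among 24 coagulation genes, 3 rose and 7 fell. F9, the factor lacking in haemophilia B, rose from 293 CPM (251 to 321) to 476 CPM (361 to 581) without overlap (0.73 ± 0.08, adjusted p = 7.18e-11), and Tfpi, the inhibitor of the pathway's start, fell from 4.75 CPM (3.27 to 5.84) to 2.56 CPM (1.69 to 3.25), also without overlap (-0.89 ± 0.11, adjusted p = 7.82e-09). F5 fell (-0.52 ± 0.11, adjusted p = 1.03e-04).

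Iron genes changed with the hepcidins at the extreme. Hamp2, one of the pair of mouse hepcidin genes, fell from 79.4 CPM (27.6 to 529) to 3.61 CPM (0.9795 to 10.1) without overlap (-4.68 ± 0.44, adjusted p = 4.80e-12), the largest fall among the genes of at least 5 mean CPM that were called both with and without the 2 libraries. Hamp, which encodes the iron hormone that degrades ferroportin, fell less, from 800.3 CPM (455 to 2407) to 575 CPM (378 to 752) (-0.71 ± 0.24, adjusted p = 0.01602). Both had their highest value in vehicle 14, without which Hamp2 gave -3.99 and Hamp -0.42 (adjusted p = 0.136). The ferritin heavy chain Fth1 (0.52 ± 0.11, adjusted p = 1.25e-04) and ceruloplasmin, Cp (0.72 ± 0.11, adjusted p = 3.32e-07), rose. In all 7 of 18 iron and metallothionein genes rose and 3 fell. Among liver hormones, Rbp4, the retinol carrier, rose without overlap (0.47 ± 0.07, adjusted p = 3.68e-07) and Selenop, the selenium carrier, gave 0.66 ± 0.13, adjusted p = 8.82e-05, while Angptl6 (-0.49 ± 0.08, adjusted p = 2.79e-06) and Fst, follistatin (-1.997 ± 0.41, adjusted p = 1.12e-04), fell.

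Subunits of oxidative phosphorylation rose in 12 of 29 cases and fell in none, all by small amounts. Sdhc, of complex II, went from 149 CPM (133 to 166) to 187 CPM (172 to 214) without overlap (0.34 ± 0.06, adjusted p = 1.10e-05), and Uqcrfs1, of complex III, gave 0.48 ± 0.08, adjusted p = 7.69e-06. Cytosolic ribosomal proteins rose in 4 of 28 cases, a share below the 19% of all tested genes, and fell in none. Genes of endoplasmic reticulum stress and heat shock mostly did not pass, with 3 of 27 higher and 1 lower. That 1 was Trib3, a stress-induced pseudokinase (-1.31 ± 0.27, adjusted p = 1.06e-04); among those that rose was Calr, a calcium-binding chaperone (0.34 ± 0.10, adjusted p = 0.00795).

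Of 20 clock genes 4 were higher and 4 lower, again near the shares of all tested genes; without corticosterone 41 alone 6 were higher and 3 lower. The repressor Nr1d1 fell from 38.4 CPM (20.7 to 63.1) to 14.7 CPM (7.47 to 29.6) (-1.37 ± 0.23, adjusted p = 3.75e-06) and Dbp, an output factor, from 30.4 CPM (10.5 to 133) to 12.4 CPM (2.98 to 26.7) (-1.704 ± 0.36, adjusted p = 2.04e-04), while Cry1 rose from 8.77 CPM (4.93 to 9.86) to 16.8 CPM (9.86 to 20.03) (0.98 ± 0.14, adjusted p = 2.94e-07) and Clock gave 0.36 ± 0.07, adjusted p = 1.09e-04. The hour of tissue collection is not given in the labels. Of 17 immediate early genes 2 rose and 3 fell, where 19% of all tested genes rose and 17.7% fell. Egr1, a factor induced by growth signals, was at 8.72 CPM (4.23 to 70.6) with vehicle, 0.418 to 1.81 CPM in 13 corticosterone libraries and 28.9 CPM in corticosterone 41 (-2.77 ± 0.55, adjusted p = 7.47e-05; -4.44 without both). Junb fell (-1.04 ± 0.19, adjusted p = 1.35e-05), Jun rose (1.03 ± 0.26, adjusted p = 0.00139), and so did the growth arrest gene Gadd45g, from 6.297 CPM (2.88 to 14.9) to 18.2 CPM (5.41 to 123) (1.86 ± 0.43, adjusted p = 4.74e-04).

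Loci outside protein-coding genes differed by class. Of 217 loci in the TEC class of the annotation, unspliced transcripts of unproven standing, 65 were lower and 5 higher, with a median log2 fold change of -0.54, against 2062 lower and 2298 higher of 11623 protein-coding genes and a median of 0.02. Long intergenic RNAs (22 higher, 25 lower of 171) and antisense RNAs (26 higher, 22 lower of 179) were balanced. 1810008I18Rik, an intergenic RNA, had the smallest p of all genes that fell. It went from 107 CPM (66.8 to 148) to 25.03 CPM (17.9 to 35.9) without overlap (-2.14 ± 0.12, adjusted p = 5.57e-19). Whether the counting used strand is not given in the sources used here, so reads of an antisense RNA and its partner may not be separable.

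**Figure D4:**
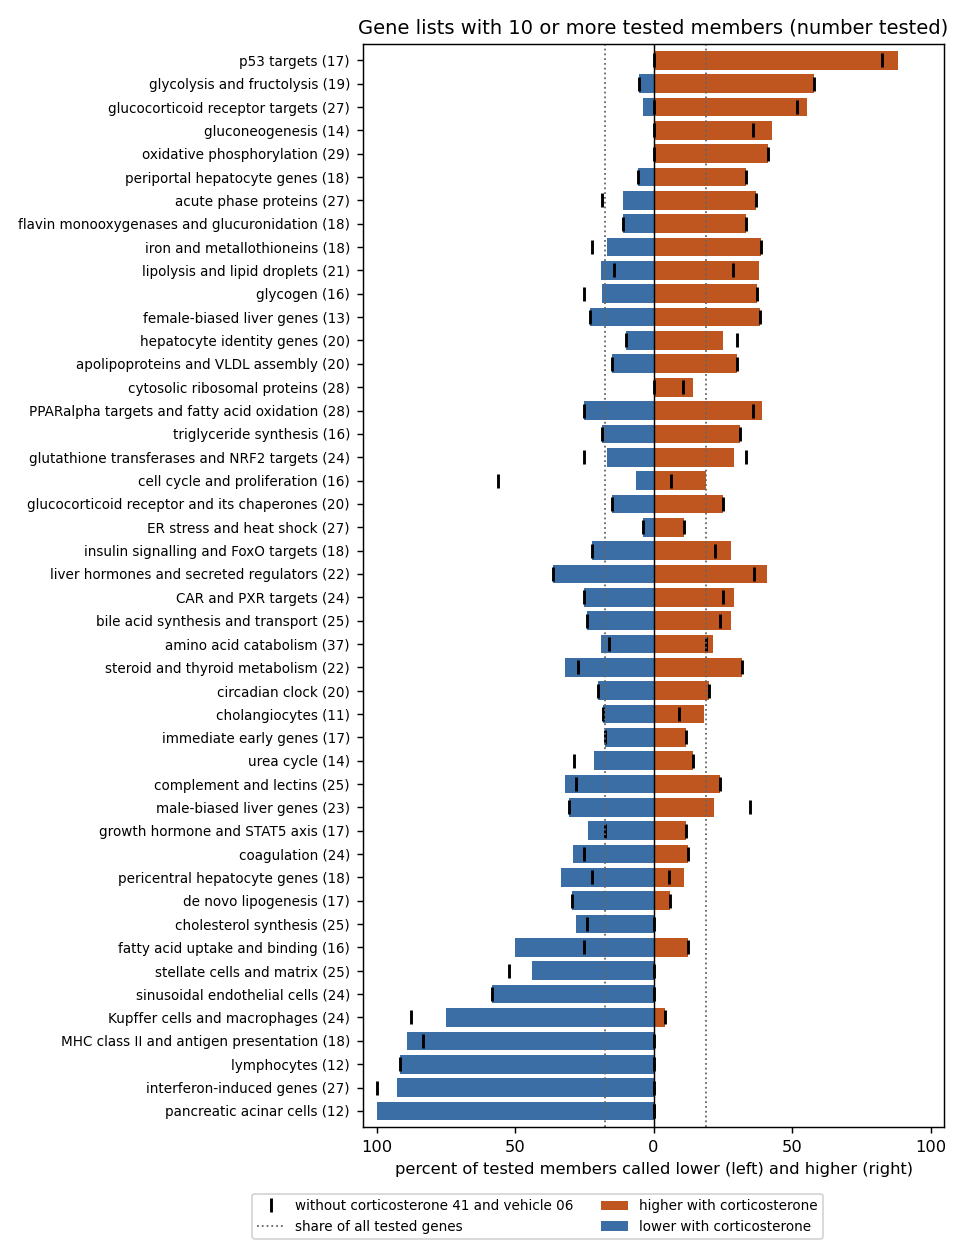
For each gene list with at least 10 tested members, the bars give the percent of members called higher (right) and lower (left) with all 24 libraries, the black ticks the same without corticosterone 41 and vehicle 06, and the dotted lines the share of all tested genes (19% higher, 17.7% lower). p53 targets have the highest share of rises, the immune and pancreatic lists the highest shares of falls, and the ticks leave the bars most for cell cycle and pancreatic genes. The lists were chosen with earlier results of these data known.

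The response was also set against that of mice without atglistatin, through the difference of the 2 log2 fold changes in the same model (interaction term); the 4 groups share no library. On the control diet 5606 genes (44.2%) were called. Of the genes called on the atglistatin diet, 3566 were called on the control diet with the same sign, 9 with the opposite sign, and 1077 were not called there, though only 38 of those 1077 differed between diets by the interaction test. In all 181 genes (1.43%) differed, 89 with a higher (0.701%) and 92 with a lower (0.725%) log2 fold change on the atglistatin diet; 99 of them kept their sign with a smaller size, 15 with a larger, and 67 had opposite signs. Of the 14 corticosterone mice on the control diet 9 were labelled diabetic, against 1 of the 14 on atglistatin. Without those 10 libraries, which leaves 5 corticosterone mice on the control diet, 76 genes differed, and of the 41 genes given with values here whose response differed, 22 no longer passed.

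Many p53 targets rose more with atglistatin than without it. Of the 17, 9 had a higher log2 fold change than on the control diet by the interaction test and none a lower one; the median was 1.26 here and 0.37 on the control diet, where 7 rose and 1 fell. Phlda3 gave 3.86 with atglistatin and 0.66 (adjusted p = 0.0657) without, a difference of 3.196 ± 0.39 (adjusted p = 5.54e-07). For Tnfrsf10b the values were 2.904 and -0.54 (difference 3.44 ± 0.55, adjusted p = 7.74e-05), for Mdm2 1.31 and 0.31 (difference 0.99 ± 0.13, adjusted p = 3.11e-06) and for Ccng1 1.38 and 0.37 (difference 1.01 ± 0.18, adjusted p = 5.40e-04). Eda2r, Aen, Plk2, Trp53inp1 and Btg2 made up the 9, with adjusted p from 0.0127 (Aen) to 0.0394 (Eda2r, 0.0572 without vehicle 11). For Cdkn1a the values were 4.06 here and 4.15 on the control diet, and their difference did not pass (-0.09 ± 0.35, adjusted p = 0.969). Without the libraries labelled diabetic, Aen (adjusted p = 0.0694) and Btg2 (0.166) no longer passed.

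Cholesterol synthesis showed the converse. On the control diet 23 of the 25 genes fell, and 17 had a higher log2 fold change with atglistatin. Hmgcs1, an early enzyme of the pathway, gave -0.36 (adjusted p = 0.113) here and -2.04 there (difference 1.68 ± 0.26, adjusted p = 4.91e-05). Sqle, squalene epoxidase (0.26 here, -1.42 there, difference 1.69 ± 0.35, adjusted p = 0.00452), Fdft1, squalene synthase (0.09 here, -1.395 there, difference 1.48 ± 0.20, adjusted p = 2.83e-06), Cyp51 (-0.08 here, -1.72 there, adjusted p of the difference 1.40e-04) and Msmo1 (-0.13 here, -1.702 there, adjusted p of the difference 5.23e-04) did likewise.

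Other genes also differed between diets. Fkbp5 gave 3.39 here and 5.02 without the inhibitor (difference -1.63 ± 0.32, adjusted p = 0.00175). The fatty acid hydroxylase Cyp4a10, a PPARalpha target, was at 382 CPM (165 to 577) with vehicle and 345 CPM (216 to 879.9) with corticosterone on this diet (-0.04 ± 0.28, adjusted p = 0.924) and rose by 1.901 on the control diet (difference -1.95 ± 0.41, adjusted p = 0.00455); its close copy Cyp4a14 gave 0.74 and 2.58 (adjusted p of the difference 0.0432). Orm3, an acute phase glycoprotein with near-identical copies, gave 0.56 here and 3.57 there (adjusted p of the difference 8.15e-05). 4 clock genes had a lower log2 fold change with atglistatin: Bhlhe41 gave -0.88 here and 2.17 there (difference -3.05 ± 0.55, adjusted p = 5.40e-04), and Ciart (0.0173), Bhlhe40 (0.0286) and Hlf (0.0359) passed with the adjusted p of the difference in brackets. The rhythmic genes Usp2 (0.84 here, 2.78 there, adjusted p of the difference 0.0428) and Rgs16 (1.42 here, 4.38 there, adjusted p of the difference 0.0413), a regulator of G protein signals, were of the same kind. The fall of Bhlhe41 here passed narrowly (adjusted p = 0.0389) and was lost without corticosterone 41 (0.0553). The rise of Rgs16 here (adjusted p = 0.0384) was lost without vehicle 06 (0.0621). Both calls were also lost without several other single libraries. Hamp2 fell further with atglistatin, at -4.68 against -2.28 on the control diet (difference -2.402 ± 0.58, adjusted p = 0.0214). 1810053B23Rik rose by 3.97 here and 6.48 there (adjusted p of the difference 0.0483). Tff3 (4.74 ± 1.23, adjusted p = 0.0339) and the pancreatic trypsin gene Try5 (-7.61 ± 2.103, adjusted p = 0.0496) also passed. Corticosterone 41 held 368 CPM of Tff3 and vehicle 06 465 CPM of Try5, and neither passed without those 2 libraries (adjusted p of the difference 0.168 and 0.374). Vehicle 14 was the highest vehicle library for each of Hamp2, Usp2, Rgs16, Ciart, Bhlhe40, Hlf and 1810053B23Rik. Without it the difference was -1.72 for Hamp2 (adjusted p = 0.0814), -1.36 for Usp2 (0.144), -2.52 for Rgs16 (0.09103), -2.27 for Ciart (0.0501), -0.79 for Bhlhe40 (0.0547), -0.54 for Hlf (0.0649) and -1.64 for 1810053B23Rik (0.2003). The difference of Cyp4a14 passed only narrowly and was lost without any 1 of 10 libraries (adjusted p up to 0.0699, without vehicle 08). Without the libraries labelled diabetic, Fkbp5, Orm3 and Bhlhe41 still passed, while Cyp4a10 (adjusted p = 0.0919), Cyp4a14 (0.553), Hamp2 (0.0912), Ciart (0.303), Bhlhe40 (0.212), Hlf (0.476), Usp2 (0.304), Rgs16 (0.326), 1810053B23Rik (0.163), Tff3 (0.248) and Try5 (0.964) did not.

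**Figure D5:**
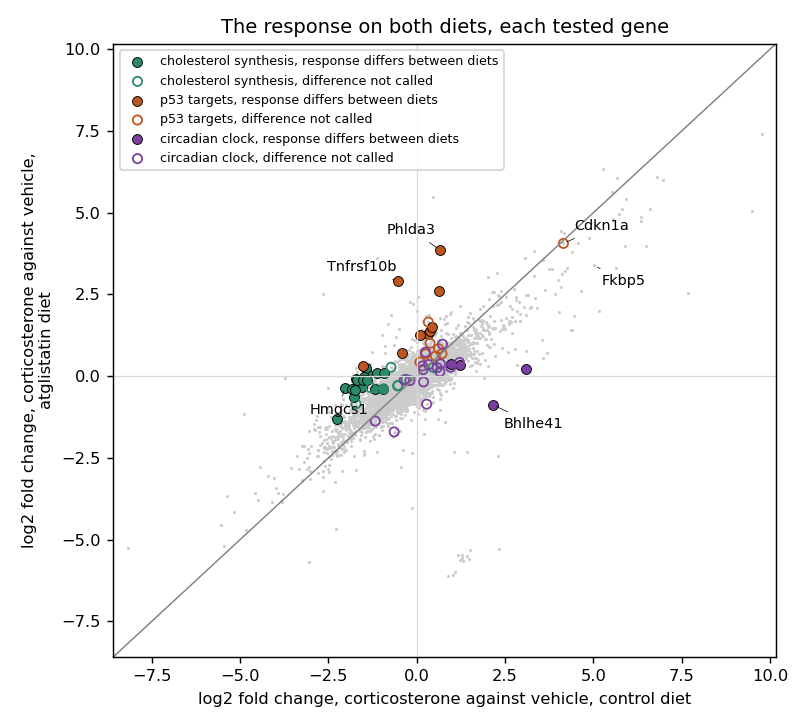
Each grey point is a tested gene, with the log2 fold change of corticosterone over vehicle on the control diet (x axis) and on the atglistatin diet (y axis); filled symbols mark members of 3 lists whose response differed between diets, open symbols the other members. Phlda3 and Tnfrsf10b lie above the diagonal near x = 0, Cdkn1a lies on it, cholesterol synthesis genes lie to the left near y = 0, and the low group around y = -5.55 is the acinar genes that vehicle 06 carries.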

How the data were processed

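Livers of 48 male mice were profiled with Lexogen Quant-Seq 3′ libraries read over 50 bases. The authors deposited raw counts per gene, one column per library, and a second table whose signal values equal those counts divided by a size factor per library (largest relative deviation 7.6e-15); the build was GRCm38 and the tools R 3.6 and DESeq2 1.24.0, per the submitters' processing notes. No source used here names the aligner, the counter or a strand setting. The members and gene lists were chosen with earlier results of these data known.

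The 14251 genes were filtered (filterByExpr, minimum count 10, minimum total 15) to 12688, scaled by TMM and fitted over all 48 libraries with edgeR 4.0.16 (R 4.3.3) by quasi-likelihood, with a mean per group; p-values carry Benjamini-Hochberg adjustment over all genes and genes at 0.05 or less are termed called. Standard errors are the log2 fold change over the square root of F. Alternatives used RLE, limma 3.58.1 (voom), DESeq2 1.42.0, no filter, fewer libraries and a replicate block. Fits were tested on simulated data. Symbols came from the deposited table (12491 IDs) or GENCODE M21 (1728); 32 had none. Named genes were, among called genes of at least 5 mean CPM with and without the 2 libraries that stood apart, the 12 highest and 12 lowest fold changes and 8 smallest p in each direction, up to 5 members per list by p, preset genes, the 8 highest and 8 lowest diet differences, and up to 8 genes whose call changed without either library; not all are described, and some genes are not reported here. Promoters are RefSeq's (GRCm38.p6).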

Additional observations from a re-analysis of the deposited data

Results flagged for a closer look

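The vehicle group of 10 was searched for a library that stood apart from the other 9 in each of the 228 genes named with values above and in glucose and insulin, by Dixon's test at its 95% critical value; the corticosterone group of 14 was too large for that test. Of the 230 groups 40 had such a library. Chance flags about 1 in 20 groups of independent, normally distributed values, which these are not. Some genes were named because their call changed without vehicle 06, many vary together, and CPM were not put on a log scale. The 40 can therefore not be weighed against that rate. Vehicle 14 was that library in 26 genes. In genes of daily rhythm its CPM were 133 of Dbp (next 62.3), 187 of Usp2 (next 63.97), 16.4 of Ciart (next 6.63) and 23.8 of Clock (next 39.4). In steroid and sex-biased genes they were 120.0 of Cyp17a1 (next 27.3), 57.8 of Fmo2 (next 23.9), 34.4 of Cyp2a4 (next 1.45), 52.3 of Abcd2 (next 16.5) and 308 of Serpina6 (next 144). Of hepcidins and metallothioneins vehicle 14 held 529 of Hamp2 (next 146), 2407 of Hamp (next 1142), 536 of Mt1 (next 186) and 99.8 of Mt2 (next 16.8). Of amino acid and transporter genes it held 204 of Agxt (next 125), 338 of Amdhd1 (next 255), 641 of Slc38a3 (next 406), 945 of Slc7a2 (next 478) and 184 of Slco1a4 (next 118). The others in which it stood apart were 8.88 of 1810053B23Rik (next 2.33), 9.56 of Btg2 (next 5.74), 56.1 of Cd74 (next 36.6), 6.97 of Gbp2 (next 3.81), 366 of Igfbp2 (next 245), 79.05 of Pnpla2 (next 54.2), 4.38 of Ppp1r3g (next 2.01) and 12.6 of Tff3 (next 2.56). Clock was the gene in which it was lowest.

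Vehicle 06 stood apart in 9 pancreatic genes, where its CPM were 1423 of 2210010C04Rik (next 74.2), 596 of Cela3b (next 28.3), 604 of Clps (next 26.3), 998 of Cpa1 (next 37.8), 1401 of Ctrb1 (next 69.2), 1029 of Pnlip (next 49.3), 842 of Prss2 (next 47.95), 778 of Rnase1 (next 41.5) and 465 of Try5 (next 35.1), and held 499 of Fasn (next 328). Vehicle 13 held 7.21 of Lcn2 (next 4.13) and 51.95 of Saa2 (next 17.5). Vehicle 11 held 179 of Gbe1 (next 149) and 299.7 of Gstm3 (next 203).

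The response to corticosterone differed between the atglistatin and the control diet by the interaction test in 41 of the genes named with values. The values here are the log2 fold change on the atglistatin diet minus that on the control diet. For p53 targets they were 3.196 for Phlda3, 3.44 for Tnfrsf10b, 1.98 for Eda2r, 1.83 for Btg2, 1.17 for Plk2, 1.06 for Aen, 1.01 for Ccng1 and 0.99 for Mdm2. For genes of sterol and acetyl-CoA metabolism they were 1.69 for Sqle, 1.68 for Hmgcs1, 1.65 for Cyp51, 1.57 for Msmo1, 1.48 for Fdft1, 0.95 for Sc5d, 0.79 for Acat2, 0.57 for Stard4 and 0.84 for Acss2. For rhythmic genes they were -3.05 for Bhlhe41, -2.85 for Ciart, -0.88 for Bhlhe40, -0.60 for Hlf, -1.94 for Usp2 and -2.96 for Rgs16. For oxidation, conjugation and transport genes they were -1.596 for Cyp2b10, -4.75 for Cyp2b9, -1.95 for Cyp4a10, -1.83 for Cyp4a14, -0.93 for Sult1d1 and -1.22 for Slco1a4. Among the others the difference was positive at 1.097 for 1810008I18Rik, 3.74 for Cxcl10, 2.59 for Gadd45g and 4.74 for Tff3, and negative at -2.51 for 1810053B23Rik, -1.63 for Fkbp5, -2.402 for Hamp2, -1.197 for Oat, -3.005 for Orm3, -0.80 for Slc37a4, -1.56 for Trib3 and -7.61 for Try5. Without the libraries labelled diabetic, 22 of the 41 no longer passed. In 19 of the 41 the call was lost when at least 1 of the 24 libraries was left out, and without corticosterone 41 the difference of Cxcl10 was 1.59 (adjusted p = 0.406).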

How the results depend on the processing

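Beside 4652 genes with all 48 libraries, other settings called 4557 (RLE size factors), 4683 (DESeq2), 5330 (voom with sample weights), 4784 (no filter), 4631 (robust estimation), 4401 (the 24 libraries alone), 4515 (without diabetic-labelled mice) and 4465 (without corticosterone 41 and vehicle 06), and between 4247 and 4650 with 1 library left out. The interaction count of 181 rose to 359 with voom, fell to 76 without diabetic-labelled mice (56 higher, 20 lower), was 265 with DESeq2 and ran from 122 (without vehicle 11) to 237 (without corticosterone 41); the 24 libraries alone and the replicate block allow no interaction term. The median log2 fold change of all genes stayed between -0.02 and 0.02 across these settings. The glucose difference changed sign to 1.1 without corticosterone 41 (p = 0.975, permutation test).

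The replicate numbers 13 and 14 occur in both groups, but same-numbered libraries did not deviate together (r = -0.05 and -0.01), so they were not taken as pairs. A fit with the replicate block on those 4 libraries called 56 genes. In it these log2 fold changes changed sign: 1.37 for 2210010C04Rik, -0.021 for Bhlhe40, -0.89 for Btg2, -0.64 for Ciart, 0.97 for Clps, 1.63 for Cpa1, 1.68 for Ctrb1, 0.090 for Cyp51, 1.504 for G6pc, 0.14 for Hmgcs1, -0.55 for Igfbp1, -1.25 for Ly6d, 0.17 for Msmo1, 0.012 for Pck1, -0.43 for Pnpla2, 0.24 for Sgk1, -0.31 for Tat and -0.42 for Tff3.

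Other sign changes were few. With voom they were -0.015 for Btg2, 0.030 for G6pc, -0.93 for Igfbp1, -0.58 for Ly6d, 1.572e-05 for Pck1, -1.397 for Plk1, -0.0082 for Pnpla2 and -1.16 for Ube2c. With DESeq2 they were 0.12 for Cyp2a4, -0.33 for Ly6d and 2.17 for the diet difference of Try5, which was 1.88 without diabetic-labelled mice. Without corticosterone 41 and vehicle 06 they were -0.16 for Btg2, 0.039 for Cyp4a10, 0.079 for G6pc, -0.91 for Igfbp1, -0.21 for Ly6d, -1.19 for Plk1, -0.12 for Pnpla2 and -1.17 for Ube2c. With 1 library left out the range crossed 0 for Btg2 (-0.16 to 0.46), Cyp2a4 (-2.81 to 0.064), Cyp4a10 (-0.20 to 0.033), Fdft1 (-0.0040 to 0.12), G6pc (-0.18 to 0.068), Igfbp1 (-1.02 to 0.23), Ly6d (-0.33 to 3.28), Pck1 (-0.16 to 0.096), Plk1 (-1.27 to 0.39), Pnpla2 (-0.11 to 0.14), Tat (-0.0012 to 0.23) and Ube2c (-1.103 to 0.83). The cause was not tested.

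Genes near silence in a group have log2 fold changes that depend on the prior count. The labels give no batch, so none could be examined, and 1 of 14 corticosterone and no vehicle mice were labelled diabetic.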
